A study of Mus musculus with 12 samples.

Results

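The expression of 8 genes that mark B cells and plasma cells was followed over 12 mouse arrays: Cd79a, Cd79b, Ms4a1, Cd22, Cr2, Blk, Mzb1 and Jchain. They were found by their symbol in the platform annotation, among probe sets (groups of short probes against 1 transcript) that name only that gene. All 8 of 8 were measured, among 18194 genes in all. Ms4a1 and Cd22 have 2 probe sets each, and for each gene its brightest probe set, by the mean of all 12 arrays, stands for it. Levels are deposited log2 values, so a difference of 1 is a 2-fold change, and levels of different genes are not set against each other because probe sets differ in brightness.

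The arrays fall into 6 groups of 2, called a and b. The diet and genotype experiment holds 8 arrays. It has wild type C57BL/6 mice (WT) and mice labelled Smad3-/- (KO), each fed a regular diet (RD) or a diet of 55% fat (high fat diet, HFD). The Smad3-/- mice were of mixed strain, from C57BL/6 mice and females of the NIH Black Swiss stock as far as the labels tell. Genotype and strain background therefore cannot be told apart. The antibody experiment holds 4 arrays of C57J/B6 mice made obese by a diet of 55% fat. All of these obese mice had 3 intraperitoneal injections a week over 8 weeks, of a control IgG (clone 13C4) or of an antibody that neutralises TGF-beta (clone 1D11, ATGF). Nothing in the labels ties arrays a and b to different animals, and the p-values therefore measure a spread between arrays that may be technical. The labels used here name no tissue. The adipocyte hormone gene Adipoq read 13.01 to 14.18 on all 12 arrays.

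Smad3, the targeted gene, encodes a carrier of TGF-beta signals to the nucleus. Its level was 8.86 and 8.94 on the WT RD arrays, 8.88 and 8.95 on WT HFD, 9.10 and 9.17 on KO RD, 9.14 and 9.03 on KO HFD, 9.13 and 8.97 with IgG and 9.07 and 9.16 with ATGF. It was therefore not lower on the arrays labelled Smad3-/-. The position of its 3 probe sets relative to the deleted part is not known here, so that these values do not check the label. Replicate arrays correlated at 0.992 to 0.996 over genes. Array medians were 6.32 to 6.39 in the diet and genotype experiment and 6.03 to 6.04 in the antibody experiment, and their SDs 1.64 to 1.74 and 2.15 to 2.17, so levels are compared within an experiment only.

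B cells recognise antigen through a membrane immunoglobulin that signals through the Cd79a and Cd79b chains, with Cd22 as an inhibitory and Cr2 as a stimulating coreceptor. Once activated, some become plasma cells, which secrete antibody. Jchain joins IgM or IgA units into polymers, and Mzb1 is a chaperone of the endoplasmic reticulum that helps antibody assembly. In adipose tissue of obese mice, B cells are known to gather and to add to inflammation. In total RNA of a tissue, fewer cells of a type and less RNA per cell cannot be told apart.

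Promoters are shown for 3 members on which the results below turn: Cd79a, which was higher with the antibody, Cd22, which was lower, and Jchain, which moved in every comparison. RefSeq (GRCm38.p6) windows of 250 bases before to 50 after the gene's start were examined for 4 of the 8 members. These were Cd79a, Cd22, Cr2 and Jchain. Windows of Ms4a1, Cd79b, Blk and Mzb1 were left out, so the matches below say nothing of those members. Capitals mark matches, on either strand, to 4 short motifs bound by factors of the B lineage: the octamer ATGCAAAT, the EBF motif CCCNNGGG, the E-box CACCTG bound by E2A, and the ETS core AGGAAG bound by PU.1 and Spi-B. The windows lie at chr7:24897247-24897546 on the plus strand (Cd79a), chr7:30878979-30879278 on the minus strand (Cd22) and chr5:88527848-88528147 on the minus strand (Jchain).
Cd79a: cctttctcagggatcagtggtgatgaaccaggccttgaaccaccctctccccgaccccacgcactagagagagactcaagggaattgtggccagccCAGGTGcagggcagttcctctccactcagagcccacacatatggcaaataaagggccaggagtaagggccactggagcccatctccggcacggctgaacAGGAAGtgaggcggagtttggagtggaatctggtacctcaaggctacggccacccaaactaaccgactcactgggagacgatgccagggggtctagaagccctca
Cd22: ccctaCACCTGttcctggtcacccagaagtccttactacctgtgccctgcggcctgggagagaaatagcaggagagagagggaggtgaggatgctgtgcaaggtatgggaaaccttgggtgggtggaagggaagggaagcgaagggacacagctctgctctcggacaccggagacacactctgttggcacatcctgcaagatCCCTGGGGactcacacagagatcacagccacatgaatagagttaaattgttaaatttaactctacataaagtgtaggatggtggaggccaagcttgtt
Jchain: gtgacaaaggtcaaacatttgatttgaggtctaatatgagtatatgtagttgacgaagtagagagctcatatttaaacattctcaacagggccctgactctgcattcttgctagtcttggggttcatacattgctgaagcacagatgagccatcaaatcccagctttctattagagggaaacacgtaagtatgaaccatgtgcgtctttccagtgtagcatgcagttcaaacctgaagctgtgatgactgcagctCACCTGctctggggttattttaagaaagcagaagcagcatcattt
The E-box was present in all 3 windows, and also in that of Cr2, against 20.2% of 32851 promoters of this length. It began 154 bases before the start of Cd79a, read as CAGGTG, and 245 bases before that of Cd22. In Jchain it began 5 bases after the start. The EBF motif was found in Cd22 (13.7% of all promoters hold it) and the ETS core in Cd79a (35.4%). The octamer, held by 1.74% of all promoters, was not among the letters of these windows. A match is a description of the sequence and no evidence of a bound factor.

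With the antibody against TGF-beta, 5 of the 8 genes were higher than with IgG, 1 was lower and 2 did not pass the test (limma over all genes, Benjamini-Hochberg adjusted p under 0.05, which is meant by "called" throughout). Over all genes 24.3% were called, 11.7% higher and 12.6% lower. The median difference of the 8 members was 0.86 log2, against -0.0031 over all genes. The members that rose were the B cell surface protein Ms4a1, both signalling chains of the B cell receptor and both plasma cell genes.

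The receptor chains are described first. Cd79a, the alpha chain, read 5.67 and 5.72 with IgG and 6.49 and 6.50 with ATGF. Both antibody arrays lay above both IgG arrays, by 0.79 ± 0.14 log2 (± is the standard error of the fit throughout), or 1.73-fold (adjusted p = 0.000119). Cd79b, the beta chain, read 4.93 and 5.20 with IgG and 6.27 and 6.19 with ATGF. Its groups did not overlap either, and its rise was larger in size, at 1.16 ± 0.15 or 2.24-fold (adjusted p = 6.47e-07); the difference between these rises was not tested.

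Ms4a1 encodes CD20, a membrane protein found on B cells from an early stage until they become plasma cells. Its level was 5.07 and 5.01 with IgG and 7.21 and 7.01 with ATGF. The groups were far apart relative to the gap between replicates, and the rise of 2.07 ± 0.14 log2, or 4.20-fold, was the largest among the members (adjusted p = 1.55e-12). The second Ms4a1 probe set, which is dimmer, read 3.42 and 3.30 with IgG and 4.09 and 3.72 with ATGF. It also rose, by 0.54 ± 0.13 (adjusted p = 0.00218 among all probe sets).

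The coreceptors and the kinase did not follow. Cd22, a lectin that dampens receptor signals, read 7.26 and 7.64 with IgG and 7.04 and 7.04 with ATGF. It was lower with the antibody by 0.41 on the log2 scale (95% interval -0.67 to -0.15, adjusted p = 0.0181), with no overlap between the groups. This call rested on few arrays: without IgG array b the difference was -0.22 (adjusted p = 0.348), and the call was also lost without ATGF array a (0.0822) or b (0.0827), with the antibody arrays fitted alone (0.0513) and after quantile normalization of all 12 arrays (0.130). The second Cd22 probe set read 4.77 and 4.86 with IgG and 4.36 and 4.10 with ATGF and was called lower too, by 0.58 on the log2 scale (adjusted p = 0.00792).

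Cr2, the complement receptor that lowers the threshold for B cell activation, read 5.03 and 4.90 with IgG and 5.14 and 5.10 with ATGF. The arrays did not overlap, but the difference of 0.16 ± 0.14 was within the error (95% interval -0.12 to 0.44, adjusted p = 0.467). Blk, a Src family kinase of the B cell receptor, read 5.43 and 5.55 with IgG and 5.55 and 5.84 with ATGF. Its difference of 0.21 ± 0.15 did not pass either (95% interval -0.09 to 0.51, adjusted p = 0.332). These intervals leave room for a rise of either gene, though for neither one as large as that of Ms4a1.

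Both plasma cell genes rose. Mzb1 read 5.89 and 6.23 with IgG and 6.89 and 7.17 with ATGF. Both ATGF arrays were higher, by 0.96 ± 0.15 or 1.95-fold (adjusted p = 1.93e-05). Jchain read 8.44 and 8.64 with IgG and 9.48 and 9.43 with ATGF. The groups did not overlap, and Jchain was 1.89-fold higher, by 0.92 ± 0.14 (adjusted p = 7.19e-06).

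**Figure D1:**
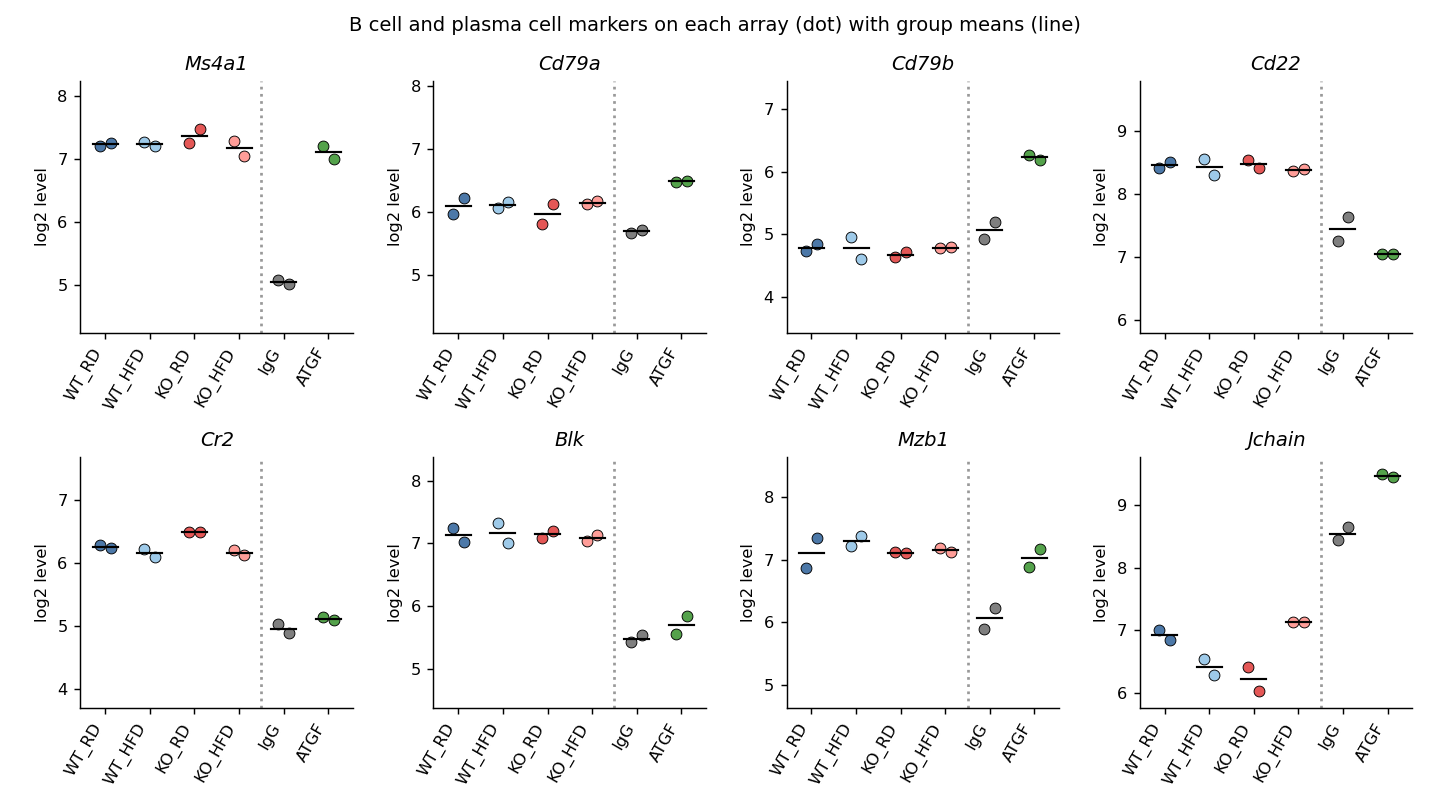
Log2 level (vertical axis, same span of 4 in each panel) of each member on each of the 12 arrays (dots, 2 per group) with the group mean (line); RD and HFD are regular and high fat diet, KO is labelled Smad3-/-, ATGF is the antibody against TGF-beta, and the dotted line separates the experiments, whose levels are not comparable. Ms4a1, Cd79a, Cd79b, Mzb1 and Jchain lie higher with ATGF than with IgG, whereas over the other 4 groups Jchain differs between groups.

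Immunoglobulin genes themselves were followed in 20 symbols named alone by a probe set, a list put together after the data had been seen. With the antibody 9 of 20 were higher and 1 was lower. Iglv1, a lambda light chain variable gene, read 7.00 and 6.55 with IgG and 9.30 and 9.38 with ATGF, a rise of 2.57 ± 0.15 or 5.93-fold (adjusted p = 1.25e-13), which 2 of its 3 probe sets showed. Igha, the heavy chain of IgA, read 5.56 and 5.66 against 6.61 and 6.69 and rose by 1.04 ± 0.13 (adjusted p = 7.15e-07). Of its 3 probe sets, 2 were called higher. Igkv8-30, a kappa variable gene, rose by 1.07 ± 0.17 (adjusted p = 1.40e-05). Ighm, the heavy chain of IgM, was already bright with IgG, at 11.71 and 11.61, and read 12.24 and 12.29 with ATGF. Its rise was 0.61 ± 0.11 (adjusted p = 7.69e-05), and 4 of its 11 probe sets were called higher. The lower gene was Ighg3, a heavy chain of the IgG class, at 7.39 and 7.88 with IgG and 5.34 and 5.70 with ATGF, though on 1 of its 4 probe sets only. Probe sets of one immunoglobulin family can share sequence, so these values are not fully separate.

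Among 16 transcription factors of the B lineage, 4 were higher and 6 lower with the antibody, with a median difference of -0.06. Spib, an ETS factor of B cells and plasmacytoid dendritic cells, read 4.23 on both IgG arrays and 5.93 and 5.76 with ATGF, a rise of 1.61 ± 0.17 (adjusted p = 1.40e-08). Pou2af1, the B cell coactivator of octamer factors, read 4.29 and 4.49 against 5.56 and 5.44 and rose by 1.11 ± 0.16 (adjusted p = 3.56e-06). Foxo1 (0.35, adjusted p = 0.0189) and Bach2 (0.33, adjusted p = 0.0403) were called higher too, but Foxo1 lost its call without IgG array b (0.135) or ATGF array a (0.0908) or b (0.104), and Bach2 without any 1 of the 4 arrays (0.0757 to 0.198) and after quantile normalization (0.211). Spi1, which encodes PU.1 and is also a master factor of macrophages, fell by 1.23 on the log2 scale (adjusted p = 2.91e-08), and Irf8, shared by B cells and myeloid cells, fell by 0.94 (adjusted p = 3.53e-06). Pax5, which keeps B cell identity, read 7.02 and 6.67 with IgG and 6.85 and 6.68 with ATGF, so its groups overlapped.

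Of 17 further genes tied to plasma cells, 1 was higher and 7 lower. The higher one was Irf4, a factor needed for plasma cell formation and also present in other leukocytes and in adipocytes, at 6.38 and 6.33 with IgG and 8.52 and 8.47 with ATGF. It rose by 2.15 ± 0.13 or 4.43-fold (adjusted p = 2.47e-13), on both of its 2 probe sets. Sdc1, the plasma cell surface marker CD138 that epithelia also carry, fell from 9.82 on both IgG arrays to 8.87 and 8.69 (adjusted p = 1.25e-07). Slamf7 fell by 1.16 on the log2 scale (adjusted p = 1.02e-05) and Prdm1, the factor that drives plasma cell differentiation, fell by 0.93 (adjusted p = 1.26e-05). Mzb1, Jchain and Irf4 thus rose on the same arrays on which Prdm1, Sdc1 and Slamf7 fell.

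The receptor signalling list went down more often than up: of 23 genes tested, 12 were lower and 1, Swap70, was higher, with a median of -0.29. The call of Swap70 was lost without ATGF array b (0.38, adjusted p = 0.0650). Blnk, the adaptor that links Syk to downstream enzymes, read 9.97 and 10.10 with IgG and 8.55 and 8.41 with ATGF and fell by 1.56 on the log2 scale (adjusted p = 2.35e-09). Prkcb, a kinase that passes receptor signals to NF-kappaB, fell by 1.31 (adjusted p = 2.90e-08), the tetraspanin Cd37 fell by 1.38 (adjusted p = 4.50e-08) and the inhibitory receptor Cd72 fell by 1.40 (adjusted p = 1.05e-07). Many of these signalling proteins also work in macrophages and other leukocytes. Class II molecules, which B cells and other antigen presenting cells carry, were lower for 7 of 9 genes, the other 2 not being called, with H2-Eb1 falling by 0.94 (adjusted p = 4.94e-08) and H2-Ab1 by 0.92 (adjusted p = 6.00e-08).

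Genes of B cell homing and survival were tested for 23 symbols, of which 5 were higher and 2 lower. Cxcl13, the chemokine that draws B cells into follicles, read 6.26 and 6.44 with IgG and 7.52 and 7.38 with ATGF, a rise of 1.10 ± 0.15 (adjusted p = 2.04e-06). Its receptor Cxcr5 read 4.99 and 4.54 against 5.40 and 5.44 and rose by 0.65 ± 0.16 (adjusted p = 0.00334), a call that was lost without IgG array b (0.43, adjusted p = 0.111). The other 3 that rose were Ltb, which shapes lymphoid tissue (0.66), the low affinity IgE receptor Fcer2a (0.55) and Cxcl12 (0.44). Ltb lost its call without IgG array b (adjusted p = 0.0936) or ATGF array b (0.0673), and Fcer2a without IgG array a (0.238) or ATGF array b (0.245). For Cxcl12 the mean of its probe sets gave no rise (adjusted p = 0.997), and the call was lost without IgG array b (0.0861) or ATGF array a (0.0685). Tgfb1, which encodes a TGF-beta ligand, fell by 0.83 (adjusted p = 3.98e-06), and the Cxcl12 receptor Cxcr4 fell by 0.69 (adjusted p = 0.000338).

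**Figure D2:**
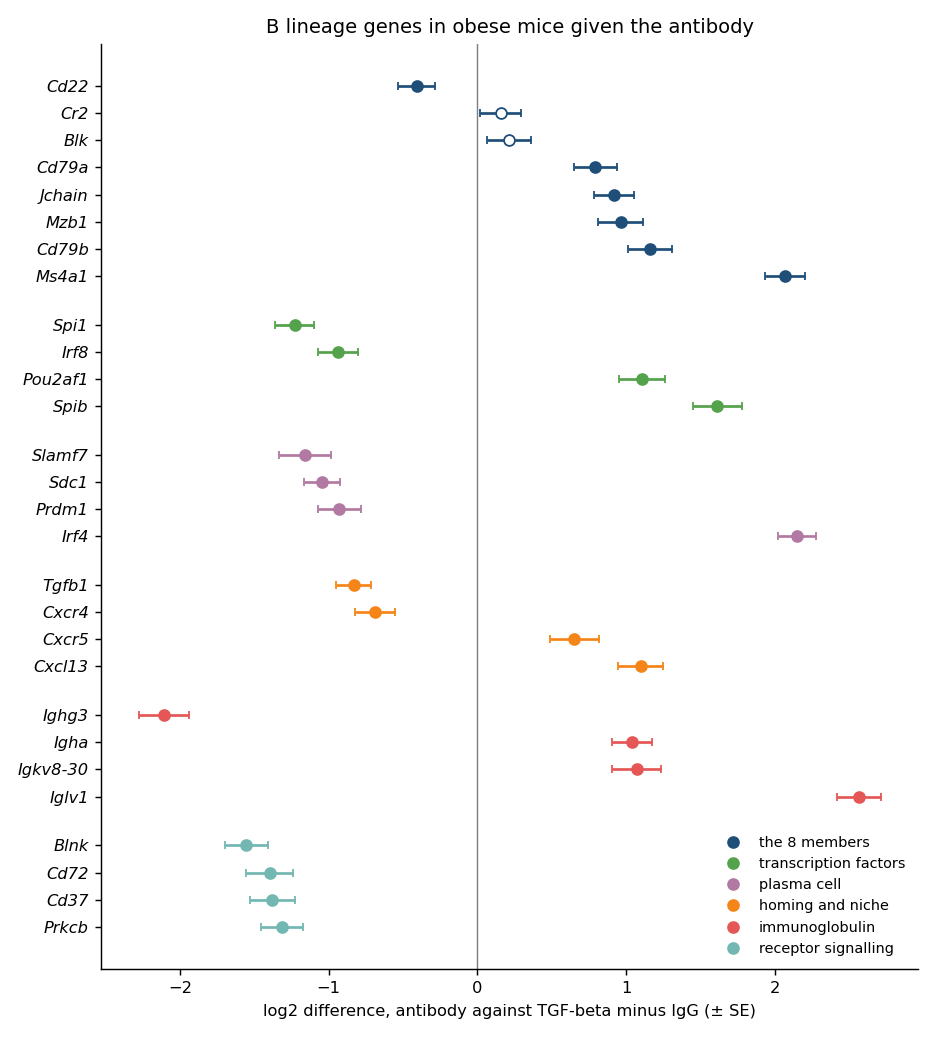
Log2 difference, ATGF minus IgG (horizontal axis), with its standard error (bar) for the 8 members and for up to 4 called genes of each B lineage list; filled dots passed the test and open dots (Cr2 and Blk) did not. Ms4a1, Irf4 and Iglv1 lie above 2, and the receptor signalling genes shown lie below -1.

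Markers of other cells also differed between the antibody arrays, and their part in the members' differences was not tested. All 10 of 10 skeletal muscle genes were higher, with a median of 5.85 log2, and the mean level of that list was 5.73 to 5.80 with IgG and 11.18 on both ATGF arrays. Of 18 macrophage genes 16 were lower and the other 2 were not called, and the mean level of that list was 10.85 to 10.91 with IgG and 9.58 to 9.62 with ATGF. T cell genes were lower for 5 of 19 and natural killer cell genes for 3 of 9, with the rest not called, whereas none of 8 mast cell genes was called by limma (1 of them at an unadjusted p under 0.05). Among the T cell genes, Il7r fell the most, by 2.22 on the log2 scale (adjusted p = 1.36e-14). Cd3e, a T cell receptor chain, read 7.33 and 7.30 with IgG and 7.54 on both ATGF arrays. Its difference of 0.22 was not called (adjusted p = 0.147). Of 7 genes listed for plasmacytoid dendritic cells, Cox6a2 (2.47) and Ly6d (0.59) were called higher and Tcf4 (-0.36) lower. The rest were not called, among them Siglech (-0.08). In the diet and genotype experiment Cox6a2 was highest on KO HFD, at 8.45 and 8.59, as was the mean of the skeletal muscle list. Whether its rise follows muscle content was not tested. Of 9 genes of lymph node stroma and vessels 3 were higher and 1 lower, a list that holds Cxcl13 as well. In that list Lyve1 and Clu had means of 10.28 and 10.87 with ATGF against 9.16 and 10.45 with IgG. Chst4 had 4.90 against 4.55, whereas Madcam1 had 3.93 against 4.24 and Glycam1 3.94 against 4.04. Of 4 red cell genes Alas2 alone was called, 0.49 higher (adjusted p = 0.00126), while Slc4a1 gave 0.38 (adjusted p = 0.0546), Epb42 0.13 and Hba-a1 -0.0072. Of 8 adipocyte genes 4 were higher and 1, Lep, was lower, with a mean level of 12.77 to 12.80 with IgG and 12.79 to 12.81 with ATGF. The difference between the signals of the 3' and 5' probe sets for beta-actin, a sign of RNA breakdown, was 0.61 and 0.67 with IgG and 0.87 and 0.75 with ATGF. The same difference for Gapdh was 0.02 and 0.10 with IgG and 0.09 and 0.14 with ATGF. The groups thus overlapped for Gapdh but not for beta-actin, which was higher with ATGF.

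**Figure D3:**
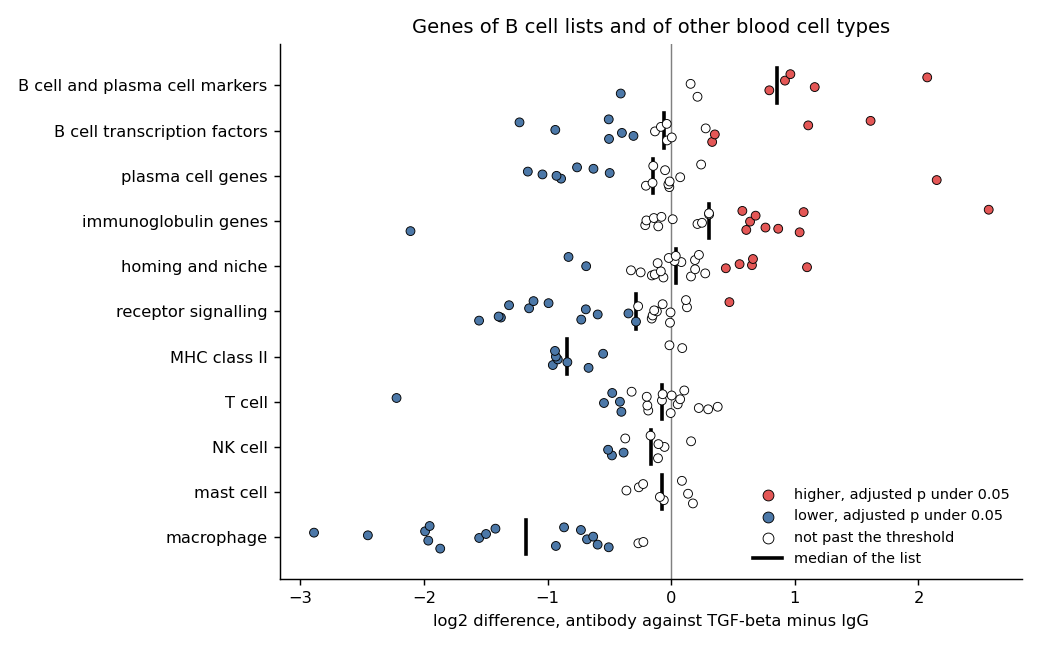
Log2 difference, ATGF minus IgG (horizontal axis), of every tested gene (dots) in 6 B lineage lists and 5 lists of other blood cells or antigen presentation, with red for higher, blue for lower and white for not past the threshold, and the list median as a black line. The median of the 8 B cell and plasma cell markers is 0.86 and that of the 18 macrophage genes is -1.18.

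In the diet and genotype experiment the comparisons ask what the high fat diet changes in each genotype, what the Smad3-/- label changes on each diet, and whether the diet acts differently in the genotypes (the interaction). These comparisons share arrays with each other, so they are not independent. Jchain was called in each of the 5, and none of the other 7 members was called by limma in any. For diet in wild type 1 of 8 members was lower (10.8% of all genes called, 4.69% higher and 6.11% lower), and for diet in Smad3-/- 1 of 8 was higher (17.3% called, 11.5% higher and 5.82% lower). For genotype on regular diet 1 of 8 was lower (24% called, 8.4% higher and 15.6% lower), for genotype on high fat diet 1 of 8 was higher (10.8% called, 4.74% higher and 6.05% lower), and for the interaction 1 of 8 was higher (18.8% called, 12% higher and 6.77% lower). A share of 1 in 8 is near these backgrounds.

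The levels of the 7 others stayed within narrow ranges over the 8 arrays. Ms4a1 ran from 7.06 to 7.48, Cd79a from 5.81 to 6.22 and Cd79b from 4.61 to 4.96. Cd22 ran from 8.31 to 8.56, Cr2 from 6.11 to 6.50, Blk from 7.01 to 7.33 and Mzb1 from 6.87 to 7.38. These spans of 0.25 to 0.51 log2 compare with one of 1.10 for Jchain, at 6.04 to 7.14. Among the 7, the difference nearest to the threshold was that of Cr2 for diet in Smad3-/-: it read 6.49 and 6.50 on the KO RD arrays and 6.21 and 6.13 on the KO HFD arrays, a difference of -0.32 ± 0.14 (unadjusted p = 0.0263 from limma, adjusted p = 0.120), and it was called (adjusted p = 0.0298) when the values of each gene's probe sets were averaged. It was the 1 of 35 pairs of gene and comparison, for these 7 genes, with an unadjusted p under 0.05. The 95% interval for Ms4a1 was -0.28 to 0.28 with the diet in wild type and -0.48 to 0.08 with it in Smad3-/-, and that for Cd79a was -0.28 to 0.31 and -0.11 to 0.48. Cd79a, Cd79b and Cr2 belong to the dimmest 40% of genes by mean level on these arrays.

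Jchain read 7.01 and 6.84 on the WT RD arrays, 6.55 and 6.29 on WT HFD, 6.42 and 6.04 on KO RD and 7.14 and 7.13 on KO HFD. The group means were 7.14 (KO HFD), 6.93 (WT RD), 6.42 (WT HFD) and 6.23 (KO RD). The WT HFD and KO RD arrays overlapped, and the gap between KO HFD and WT RD was not tested. In wild type the level fell by 0.51 on the log2 scale with the diet (SE 0.14, adjusted p = 0.0124), but without WT RD array a (adjusted p = 0.166) or WT HFD array b (adjusted p = 0.182) this was not called. In the mice labelled Smad3-/- the high fat diet went with a level 0.91 ± 0.14 higher, or 1.88-fold (adjusted p = 1.01e-05). Genotype on regular diet gave -0.70 ± 0.14 (adjusted p = 0.000232) and genotype on high fat diet 0.72 ± 0.14 (adjusted p = 0.000413). The interaction was 1.42 ± 0.19 (adjusted p = 1.95e-06), so the diet difference of Jchain itself differed between the genotypes as labelled.

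Ighm, like Jchain, was lower on WT HFD and on KO RD than on the other groups. It read 11.98 and 11.88 on WT RD, 9.50 and 9.46 on WT HFD, 8.95 and 8.66 on KO RD and 10.84 and 11.02 on KO HFD. No 2 of these groups overlapped, and the differences were: -2.45 ± 0.11 with the diet in wild type, 2.12 ± 0.11 with it in Smad3-/-, -3.12 ± 0.11 for genotype on regular diet and 1.45 ± 0.11 for genotype on high fat diet. The interaction was 4.57 ± 0.15 (adjusted p = 4.97e-19). Only 2 of the 11 probe sets for Ighm were called in these comparisons, in the directions given. With the mean of its probe sets the interaction was 0.78 (adjusted p = 0.000334) and genotype on high fat diet 0.23 (adjusted p = 0.131).

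Igkv8-30 moved in the same directions as Ighm and Jchain. It read 5.50 and 5.86 on WT RD, 4.24 and 4.38 on WT HFD, 4.53 and 4.25 on KO RD and 5.31 and 5.42 on KO HFD. Here WT HFD and KO RD overlapped, and the interaction was 2.35 ± 0.24 (adjusted p = 9.12e-09). Its WT HFD and KO RD readings lay under percentile 10.3 of all genes on their arrays. The size of these differences is therefore uncertain. Igha differed in direction: 6.81 and 6.77 on WT RD, 7.94 and 7.67 on WT HFD, 7.21 and 7.06 on KO RD and 7.12 and 7.05 on KO HFD. It was 1.02 ± 0.13 higher with the diet in wild type (adjusted p = 1.81e-06), on all 3 of its probe sets, and its interaction was -1.07 ± 0.19 (adjusted p = 8.21e-05). Of the 20 immunoglobulin genes, 4 had a positive interaction past the test (Ighm, Igkv8-30, Igkv6-14 with 0.60 ± 0.21 and a further kappa variable gene with 1.13 ± 0.23) and 1, Igha, a negative one. The call of Igkv6-14 (adjusted p = 0.0415) was lost under 7 of 17 alternative settings.

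**Figure D4:**
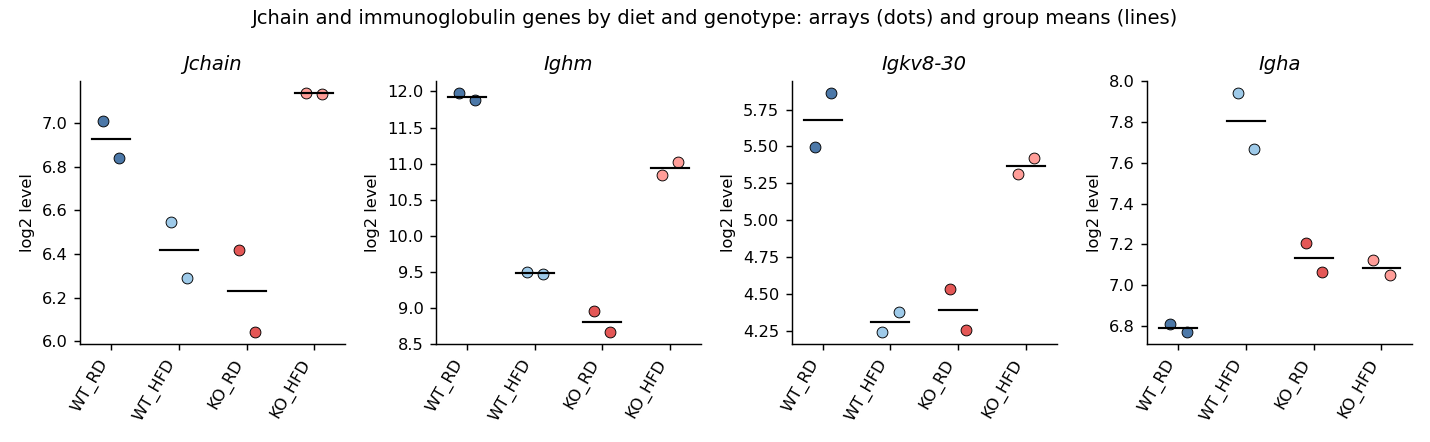
Log2 level (vertical axes, a different scale in each panel) of Jchain, Ighm, Igkv8-30 and Igha on the 8 arrays of the diet and genotype experiment (dots, 2 per group) with group means (lines). Jchain, Ighm and Igkv8-30 are lower on the WT HFD and KO RD arrays than on the WT RD and KO HFD arrays, while Igha is highest on the WT HFD arrays.

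The other B lineage lists were mixed in direction. Among 17 plasma cell genes the interaction was called higher for 3 and lower for 5. Xbp1, the factor that expands the secretory apparatus, fell by 0.97 with the diet in wild type (adjusted p = 1.82e-08), and its interaction was 1.12 ± 0.14. Sec11c, Creld2 and Derl3, which work in the endoplasmic reticulum, had negative interactions of -3.21, -1.99 and -1.83. Txndc5 and Fkbp11, which also fold proteins there, had 0.01 and -0.45 and were not called. Irf4 read 6.86 to 7.27 on the WT RD, WT HFD and KO RD arrays and 7.63 and 7.69 on KO HFD. It was 0.70 ± 0.13 higher on KO HFD than on WT HFD (adjusted p = 0.000253), but only 1 of its 2 probe sets was called there. The interaction was called higher for 2 of 16 transcription factors, Foxo1 (1.07) and Ets1 (0.43, adjusted p = 0.0468). Foxo1 was lowest on KO RD, at 8.26 and 8.07, as was the mean of the adipocyte genes below. Whether the Foxo1 differences follow adipocyte content was not tested. The call of Ets1 was lost under 11 of 18 alternative settings. It was higher for 1 and lower for 3 of 23 receptor signalling genes, the largest being Blnk at -1.19 ± 0.21 (adjusted p = 5.92e-05), and higher for 1 and lower for 2 of 23 homing and survival genes.

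Markers of other cells and of RNA quality moved with these groups too, and their part in the Jchain and Ighm differences was not tested. Of 4 red cell genes tested, Alas2, of red cell precursors, was the 1 called. It had the same signs as Jchain, with -0.86 for the wild type on the diet, 1.15 for Smad3-/- on the diet and 2.02 ± 0.16 for the interaction (adjusted p = 5.44e-11). The interactions of the other 3, Hba-a1, Slc4a1 and Epb42, were -0.18, -0.03 and -0.18 and were not called. Adipocyte genes, 8 of which were tested, had a mean level of 12.70 to 12.73 on WT RD, 12.45 to 12.59 on WT HFD, 11.19 to 11.35 on KO RD and 12.34 to 12.36 on KO HFD, lowest like Jchain and Ighm on KO RD. Their interaction was higher for 7 of 8, and 7 of 8 were lower for genotype on regular diet and higher with the diet in Smad3-/-, among them the adipokine gene Lep with -3.85 and 2.02. The mean level of 10 skeletal muscle genes was 6.50 to 6.69 on WT RD, 5.57 to 5.80 on WT HFD, 6.77 to 6.93 on KO RD and 10.82 to 10.93 on KO HFD. That of 8 epididymis genes was 5.74 to 5.80, 7.85 to 7.89, 11.70 to 11.76 and 6.99 to 7.12 in the same order, with Sec11c, Creld2 and Derl3 also highest on KO RD. Macrophage genes were lower for 12 and higher for 1 of 18 for genotype on regular diet, and lower for 12 on high fat diet, where the other 6 were not called. The 3' minus 5' difference of Gapdh was 0.12 and 0.14 on the WT RD arrays and 0.28 to 0.50 on the other 6, and that of beta-actin 0.77 to 0.80 and 0.90 to 1.12.

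The genes most like the members over the 8 diet and genotype arrays were taken by their correlation with the mean of the 8 members, among 2158 genes with enough signal and spread. They were Abi3bp (Pearson r = 0.84), Sfrp2 (0.78), Wapl (0.76), Nr1d1 (0.72), Trp53i13 (0.71) and Flnc (0.68), with n = 8 arrays that share 4 groups. The members' mean itself ran from 6.63 to 6.79 over these arrays, so the likeness rests on small differences. Over the 4 antibody arrays the same ranking, among 1874 genes, was led by Myod1 and Prpf40b (r = 0.9998 each). Those arrays hold only the IgG and ATGF groups, so likeness there cannot be told apart from sharing the difference between them.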

How the data were processed

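Each of 12 samples was measured on 1 single-channel Affymetrix array of total RNA (Trizol, 6 ug, per the labels' protocols). The authors deposited log2 values, which the submitters' processing notes tie to RMA (background correction, quantile normalization, probe summary) and Partek, versions not given in the sources used here. Of 45101 probe sets, 34958 named 1 gene in the platform annotation, 932 several and 9211 none, and 1 probe set per gene was kept for 18194 genes.

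The test was limma 3.58.1 under R 4.3.3 (lmFit on the 6 group means over all 12 arrays, eBayes with an intensity trend, two-sided, Benjamini-Hochberg over all genes, threshold 0.05), with 6 residual and 20.4 prior degrees of freedom. The number of arrays limits the precision. The script was tested on simulated data. Alternatives were eBayes without trend or robust, genes under the 40th percentile left out, each probe set by itself or averaged per gene, median centring, quantile normalization over 12 arrays, the arrays of one experiment alone, arrayWeights, the replicate letter as a block, and each array left out in turn. Fits that left out KO RD or WT RD were added once the data had been seen.

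The members and gene lists were chosen with earlier results of these data known. All 8 members are named. Other named genes were mostly taken from the up to 4 called genes of a list per comparison with the smallest p, and not all of those are named. The list of 20 immunoglobulin symbols and the genes Pax5, Cd3e, Swap70, Bach2, Ltb, Fcer2a and Igkv6-14, and Foxo1 and Cxcl12 for the antibody, fall outside that rule and were chosen after their values were seen. Of the 27 receptor signalling and 28 homing genes listed, 4 and 5 were not analysed here. Arrays with the same letter did not deviate together (correlation of deviations -0.16 to 0.17 over 7 pairs of groups), so the letters were not taken to pair samples.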

Additional observations from a re-analysis of the deposited data

Results flagged for a closer look

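By the interaction term, the difference between high fat and regular diet arrays was unlike in wild type and Smad3-/- labelled mice for these genes. The term is from limma, adjusted over all genes, and positive where the diet difference was higher in Smad3-/-. Strain background goes with the genotype label, and markers of other tissues differed between these groups. Their part was not tested. Jchain had an interaction of 1.42 (adjusted p = 1.95e-06). Among immunoglobulin genes it was 4.57 for Ighm on 2 of its 11 probe sets (0.78 with the mean of its probe sets), 2.35 for Igkv8-30, 0.60 for Igkv6-14, 1.13 for a further kappa variable gene and -1.07 for Igha. Among plasma cell genes it was 1.12 for Xbp1, -3.21 for Sec11c, -1.99 for Creld2 and -1.83 for Derl3. These last genes, Sec11c, Creld2 and Derl3, were highest on KO RD, where the epididymis genes had their highest mean level. Among transcription factors and receptor signalling genes it was 1.07 for Foxo1, 0.43 for Ets1, -1.19 for Blnk, -0.59 for Fcgr2b (0.0758 with the mean of its probe sets), -0.73 for Syk and 0.60 for Prkcb. Among homing and survival genes it was 0.67 for Ltbr, -0.65 for Ccr6 and -0.59 for Ccl28. Among class II genes it was -0.84 for H2-DMb2, -0.61 for Cd74, -0.73 for H2-DMa and -0.46 for H2-Eb1. Alas2, of red cell precursors, had an interaction of 2.02, while the other 3 red cell genes tested, at -0.18 to -0.03, were not called. The calls of Ets1, Ccl28, Igkv6-14, H2-Eb1, Prkcb, Ccr6, H2-DMa, Syk and Fcgr2b were each lost under at least 1 alternative setting, Ets1 under 11 of 18 and Ccl28 under 10 of 17.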

How the results depend on the processing

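Of 48 pairs of member and comparison, 45 kept their call and direction under every alternative run, 3 changed their call under at least 1 and none reversed. The 3 are Cd22 with the antibody and Jchain for diet in wild type, whose values stand above, and Cr2 for diet in Smad3-/-, which was called with the mean of probe sets, so that 2 members were called there. Cr2 has 1 probe set and its difference of -0.32 was the same, while its standard error fell. Leaving out 1 array left 0 to 1 members called for diet in wild type. In 258 pairs of other named gene and comparison, 185 kept their call, 73 changed and 3 of these reversed: with the mean of probe sets, Fcgr2b was 0.046 for diet in Smad3-/- and 0.0758 for the interaction, and Cxcl12 -9e-04 with the antibody; the cause was not tested. Quantile normalization over 12 arrays gave 2438 higher and 2572 lower genes for genotype on regular diet, against 1528 and 2833. With the replicate letter as a paired term (replicate block), 5 members were higher and 1 lower with the antibody, and no member's call changed in any comparison. Without genes under the 40th percentile, Cd79a, Cd79b and Cr2 were not tested, and 3 members were higher and 1 lower with the antibody. Signal limits what can be said of dim probe sets, and 2 arrays a group limit every interval.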
